A study of Mus musculus with 6 samples.

Results

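The transcripts described here encode the machinery that moves a newly made protein into the secretory pathway, and 48 genes were listed in 6 steps: signal recognition, translocon, signal peptidase, oligosaccharyl transfer, COPII and COPI. They were listed by name from their known function, but with earlier results of these data known. Each gene was read by the probe set annotated to it alone that had the highest mean over the 6 arrays. A probe set of 1 gene was found for 46 of the 48, because Srp54a and Sec61g were covered only by probe sets shared between genes and are given no value. The probe set of Tmed2, a p24 cargo receptor, averaged 3.46 and lay below the lowest mean tested, 4.638, so 45 genes were tested among 12469 in all.

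The livers of 3 male GHRH-KO mice were compared, in which the gene for growth hormone-releasing hormone is disrupted in every tissue, with those of 3 male normal littermates, here called Control. Both groups were bred on a mixed background of C57BL6 and 129SV, were 10 months old, and had been fasted for 6 to 8 h. Each array holds the liver of 1 animal, GHRH-KO replicates 4, 5 and 6 and Control replicates 1, 2 and 3. Expression was measured on Affymetrix Mouse Genome arrays, in which a probe set is a group of short probes for 1 transcript, and the values are RMA values on the log2 scale, so a difference of 1 is a doubling of the signal.

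Secreted and membrane proteins carry a signal peptide that the signal recognition particle (SRP) binds as it leaves the ribosome, and the SRP receptor then brings the ribosome to the Sec61 channel of the endoplasmic reticulum (ER). There the signal peptide is cut off by signal peptidase and N-linked sugar chains are added by the oligosaccharyltransferase (OST), after which COPII coats carry cargo to the Golgi and COPI coats return receptors and escaped ER proteins. Hepatocytes make most plasma proteins and have much of this machinery.

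The arrays resembled each other, with a correlation of at least 0.972 over all probe sets. Ghrh is a hypothalamic gene, and its probe set read 4.40 to 4.57 in GHRH-KO livers and 4.41 to 4.75 in Control livers, which is too dim to check the labels. Igf1, a target of growth hormone in liver, read 6.72 to 6.92 in GHRH-KO livers, against 12.2 to 12.5 in Control livers. Hepatocyte markers were present at close levels, and the summed signal of 8 of them was 16.87 to 16.91 on the log2 scale in GHRH-KO livers and 16.82 to 16.86 in Control livers, a small shift without overlap. Of the 8 markers, 3 were higher in GHRH-KO livers without overlap, against 12.7% of all genes, and 0 were lower. At an unadjusted p below 0.05 (limma), 0 differed. GHRH-KO replicate 5 stood apart in RNA quality: its Gapdh control probe sets were 5.27 brighter (log2) at the 3′ end than at the 5′ end, against 0.15 and 0.28 in the other GHRH-KO livers and 0.18 to 0.67 in Control livers. Values without it are given for the main counts of the secretory genes and for several of the genes in which it stood apart. Bulk RNA cannot tell fewer cells of a type from less RNA per cell.

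Most of the secretory genes read slightly lower in GHRH-KO livers, and none of them passed the test. Of the 45 genes, 34 were lower and 11 higher in GHRH-KO livers, with a median log2 fold change of −0.25, against 0.00 over all genes tested. The log2 fold changes ran from −0.78 for Srp68 to 0.42 for Sec24a, and the middle 50% of them lay between −0.41 and −0.10. A gene was called when the adjusted p from limma (Benjamini-Hochberg, over all probe sets tested) was below 0.05 and the fold change above 1.5 or below 0.67. By that rule 0 of 45 secretory genes were called lower and 0 higher, where 0.97% and 0.786% of all genes were called in these directions, and the smallest adjusted p among them was 0.0565.

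At an unadjusted p below 0.05 in the same limma fit, 17 of 45 secretory genes (37.8%) were lower in GHRH-KO livers, against 10.1% of all genes, and 1 of 45 (2.22%), Sec24a, was higher, against 9.15% of all genes. In 26 of 45 genes (57.8%) all 3 GHRH-KO livers read below all 3 Control livers, which held for 15.7% of all genes. No secretory gene had its 3 GHRH-KO livers all above the Control livers, a pattern found in 12.7% of all genes. Without GHRH-KO replicate 5 the count at an unadjusted p below 0.05 was again 17 lower genes of 45, against 9.05% of all genes. The median was then −0.27, against −0.016 over all genes, and 30 of 45 genes were lower without overlap, against 21.4% of all genes.

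**Figure D1:**
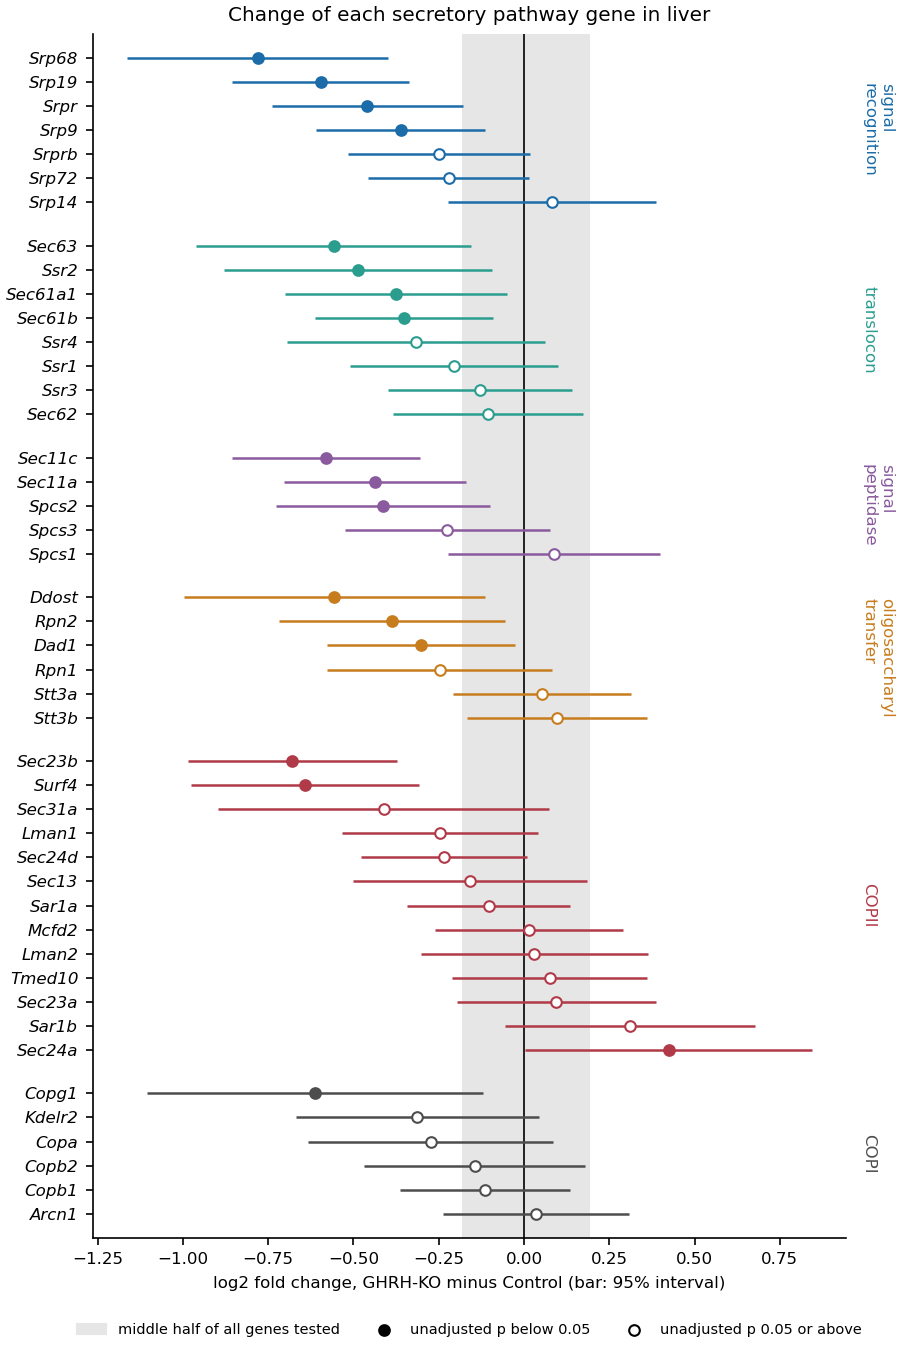
Log2 fold change of each of the 45 secretory genes, GHRH-KO minus Control (horizontal axis, log2 scale), by step. Points are limma estimates, bars their 95% intervals, filled points have an unadjusted p below 0.05, and the grey band spans the middle 50% of all genes tested. Genes to the left of 0 were lower in GHRH-KO livers (34 of 45).

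The shift was seen in each animal, not in a single array. In each array the deviation of a gene from its own mean over the 6 arrays was taken, and the median over the 45 genes was −0.10, −0.17 and −0.13 in GHRH-KO replicates 4, 5 and 6, against 0.10, 0.13 and 0.12 in Control replicates 1, 2 and 3. The genes below their own mean numbered 36, 30 and 33 of 45 in the GHRH-KO livers and 8, 12 and 7 of 45 in the Control livers. The groups did not overlap in either measure. GHRH-KO replicate 5 had the fewest genes below the mean of its group but the lowest median, and its deviations over all genes were also the widest, with an interquartile range of 0.33 against 0.18 and 0.19 in the other GHRH-KO livers and 0.18 to 0.32 in Control livers. Over all genes tested the median deviation was −0.016, 0.037 and −0.009 in GHRH-KO replicates 4, 5 and 6. In Control replicates 1, 2 and 3 it was 0.022, −0.005 and 0.009. The mean covers both groups, so lower values in one group place the other above it.

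**Figure D2:**
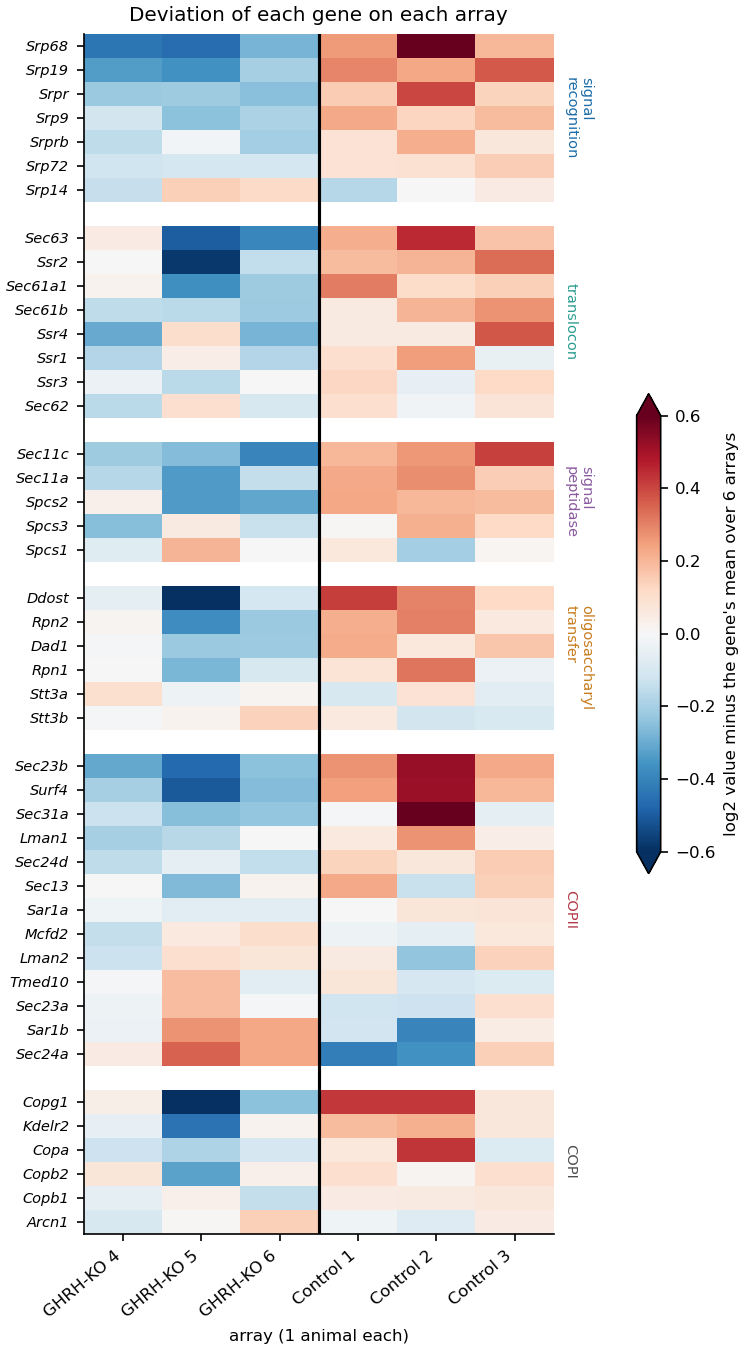
Deviation of each secretory gene on each array from its own mean over the 6 arrays (colour, log2 units, with darkest colours for values at or beyond the ends of the scale). Columns are single animals, with the 3 GHRH-KO livers left of the line and the 3 Control livers right of it, and rows are genes grouped by step. GHRH-KO columns are mostly blue (below the mean) and Control columns mostly red, with COPII genes such as Sar1b and Sec24a running the other way.

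The signal recognition particle and its receptor had 6 of 7 genes lower in GHRH-KO livers. These 6 (85.7%) were all without overlap between the groups, against 15.7% of all genes. The median log2 fold change of the step was −0.36, and 4 of 7 genes (57.1%) were lower at an unadjusted p below 0.05, against 10.1% of all genes. Srp68, which pairs with Srp72 on the SRP RNA, had RMA values of 8.75, 8.73 and 8.91 in GHRH-KO livers, against 9.44, 9.90 and 9.39 in Control livers. Control replicate 2 was the highest of the 6, but the lowest Control liver was still above every GHRH-KO liver. The log2 fold change of Srp68 was −0.78 ± 0.16 (standard error, 95% interval −1.16 to −0.40), or 1.72-fold lower, with an adjusted p of 0.0751 by limma, and without Control replicate 2 it was −0.62. Srp19, which binds the SRP RNA and prepares it for the signal peptide-binding subunit, had values of 9.20, 9.17 and 9.33 in GHRH-KO livers and 9.82, 9.76 and 9.90 in Control livers. These values were tight within each group and did not overlap, and Srp19 had the lowest adjusted p of all 45 genes, 0.0565 by limma, at a log2 fold change of −0.60 ± 0.11 (1.51-fold lower).

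Both receptor subunits lay lower as well. Srpr, the GTPase subunit of the SRP receptor, read 10.43, 10.44 and 10.40 in GHRH-KO livers and 10.81, 11.06 and 10.79 in Control livers, a log2 fold change of −0.46 ± 0.12 (adjusted p = 0.119, limma). Srprb, which anchors the receptor in the membrane, differed by −0.25, with a range of 7.66 to 7.85 in GHRH-KO livers against 7.93 to 8.08 in Control livers (adjusted p = 0.301, limma). Srp9 and Srp14 form the Alu domain, the part of SRP that slows elongation. Srp9 read 10.73, 10.59 and 10.65 in GHRH-KO livers and 11.06, 10.96 and 11.02 in Control livers (log2 fold change −0.36 ± 0.11, adjusted p = 0.152, limma). Srp14 overlapped between the groups, at 10.79 to 11.07 in GHRH-KO livers and 10.76 to 10.98 in Control livers, and the difference of 0.08 had a 95% interval of −0.22 to 0.39. The 3 other probe sets of Srp14 differed by −0.12, 0.00 and 0.02, and Srp9 was not tested against Srp14. Srp72 was the most even of the set, with 10.24, 10.26 and 10.26 in GHRH-KO livers and 10.45, 10.46 and 10.51 in Control livers, but the difference of −0.22 was small (adjusted p = 0.3, limma).

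All 8 translocon genes with a value were lower in GHRH-KO livers, with a median log2 fold change of −0.33. Of these, 4 of 8 (50%) had an unadjusted p below 0.05 and no overlap, against 10.1% and 15.7% of all genes lower by these measures. The pore subunit Sec61a1 read 11.58, 11.19 and 11.35 in GHRH-KO livers and 11.87, 11.67 and 11.71 in Control livers, and Sec61b, the small beta subunit, 11.55, 11.54 and 11.48 in GHRH-KO livers and 11.76, 11.90 and 11.97 in Control livers. The groups lay apart for both, and the log2 fold changes were −0.38 ± 0.14 for Sec61a1 and −0.35 ± 0.11 for Sec61b (adjusted p = 0.222 and 0.172, limma). Sec61a1 had 6 probe sets, all lower in GHRH-KO livers. One of the dimmer ones was the only one of the 99 probe sets of these genes to pass the test, with 6.20, 6.00 and 6.27 in GHRH-KO livers, against 7.39, 7.30 and 7.12 in Control livers (log2 fold change −1.12 ± 0.13, adjusted p = 0.0121, limma). It was singled out after its values were seen. The brightest probe set of the same gene is the one with the log2 fold change of −0.38.

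Sec63, whose J domain brings the chaperone BiP to the channel, had the lowest p of the step. It read 9.69, 9.15 and 9.25 in GHRH-KO livers and 9.86, 10.09 and 9.82 in Control livers, a log2 fold change of −0.56 ± 0.17 (adjusted p = 0.164, limma). GHRH-KO replicate 4 was close to the Control livers and the other GHRH-KO livers were well below them. Sec62, the other partner of the channel in post-translational import, overlapped between the groups and differed by −0.11 (95% interval −0.38 to 0.17). The 4 subunits of the translocon-associated protein complex (TRAP, Ssr1 to Ssr4), which helps some signal peptides to open the channel, differed by −0.13 to −0.49. Ssr2 was the lowest of them, with 9.16, 8.58 and 9.01 in GHRH-KO livers and 9.35, 9.37 and 9.50 in Control livers, and it was GHRH-KO replicate 5 that lay farthest from the rest. Without that replicate the log2 fold change of Ssr2 was −0.32 in place of −0.49. Ssr4 read 11.44, 11.84 and 11.46 in GHRH-KO livers and 11.79, 11.79 and 12.11 in Control livers, so that the groups overlapped through GHRH-KO replicate 5 (log2 fold change −0.32, adjusted p = 0.344, limma, and −0.21 without Control replicate 3).

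Signal peptidase had the lowest median of the 6 steps, −0.41, with both catalytic subunits lower in GHRH-KO livers. Sec11c read 9.73, 9.68 and 9.55 in GHRH-KO livers and 10.14, 10.20 and 10.35 in Control livers, and Sec11a 11.07, 10.91 and 11.10 in GHRH-KO livers and 11.48, 11.53 and 11.39 in Control livers. Neither gene overlapped between the groups. The log2 fold changes were −0.58 ± 0.12 for Sec11c (95% interval −0.86 to −0.30, adjusted p = 0.07, limma) and −0.44 ± 0.11 for Sec11a (95% interval −0.70 to −0.17, adjusted p = 0.12, limma). Of the accessory subunits, Spcs2 read 10.95, 10.58 and 10.61 in GHRH-KO livers and 11.15, 11.12 and 11.11 in Control livers, again without overlap (−0.41 ± 0.13, adjusted p = 0.179, limma). Spcs3, which has most of its mass in the ER lumen, read 10.09, 10.40 and 10.21 in GHRH-KO livers and 10.36, 10.56 and 10.47 in Control livers and overlapped at 1 liver of each group. Spcs1 was the exception, at 11.59, 11.87 and 11.66 in GHRH-KO livers and 11.73, 11.46 and 11.68 in Control livers, a difference of 0.09 with a 95% interval of −0.22 to 0.40.

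On their brightest probe sets, the 4 listed non-catalytic OST subunits were all lower in GHRH-KO livers, and the 2 catalytic subunits were not. This split is given for the listed subunits only. Of 32 further genes of this step, 25 were lower, such as Tmem258 (−0.21), and 7 higher, such as Ost4 (0.06). Ddost, also called OST48, read 9.62, 9.02 and 9.58 in GHRH-KO livers and 10.10, 9.98 and 9.81 in Control livers (log2 fold change −0.56 ± 0.19, adjusted p = 0.192, limma). The groups lay apart, but GHRH-KO replicate 5 was well below the others, and without it the log2 fold change was −0.36. Rpn2, ribophorin II, read 10.06, 9.67 and 9.82 in GHRH-KO livers and 10.26, 10.34 and 10.10 in Control livers, and Dad1, a small subunit named for defender against cell death, 11.02, 10.81 and 10.82 in GHRH-KO livers and 11.26, 11.10 and 11.20 in Control livers. Both were without overlap, at log2 fold changes of −0.39 ± 0.14 and −0.30 ± 0.12 (adjusted p = 0.219 and 0.242, limma). Rpn1, ribophorin I, read 11.47, 11.19 and 11.37 in GHRH-KO livers and 11.55, 11.79 and 11.43 in Control livers, which overlapped, with a difference of −0.25 that was −0.15 without Control replicate 2.

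The catalytic subunit of the co-translational enzyme, Stt3a, read 11.52, 11.40 and 11.44 in GHRH-KO livers and 11.33, 11.51 and 11.36 in Control livers. Stt3b, which serves the sites that Stt3a missed, read 11.47, 11.51 and 11.63 in GHRH-KO livers and 11.55, 11.38 and 11.39 in Control livers. The differences were 0.05 (95% interval −0.21 to 0.31) and 0.10 (95% interval −0.17 to 0.36), so a decrease of the size seen for Ddost lay outside both intervals on these probe sets. For Stt3a this rests on the probe set, since 2 dimmer ones differed by −0.04 and −0.34, while a second one of Stt3b differed by 0.13. Whether the catalytic subunits differed from the listed non-catalytic ones was not tested as a group.

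**Figure D3:**
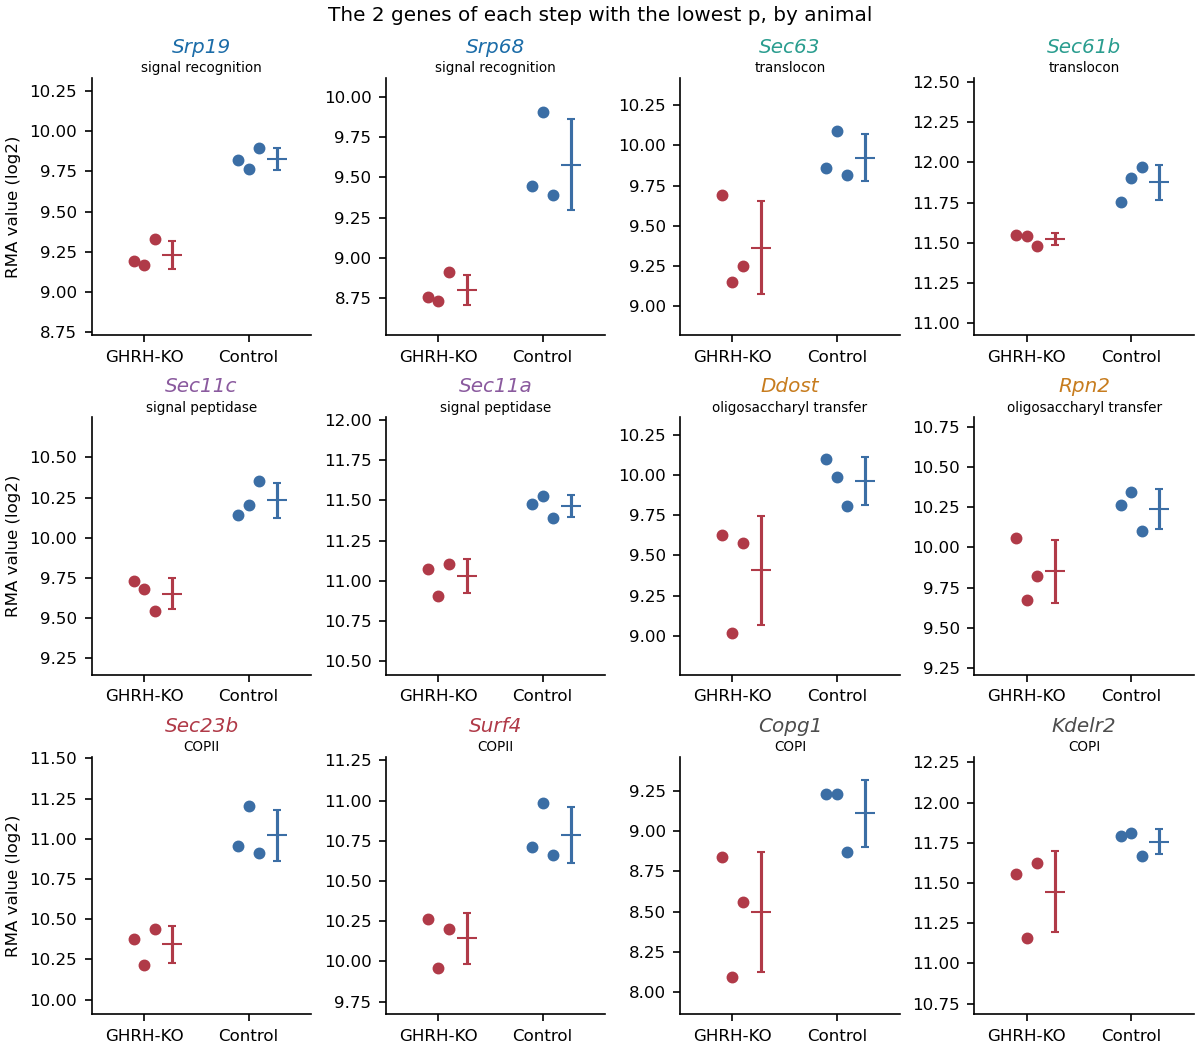
RMA values (vertical axis, log2, every panel with a range of the same width) of the 2 genes of each step with the lowest p, by animal. Points are single livers, the bar beside them is the mean ± SD, n = 3 per group. The genes were picked by p from these same livers, which favours genes whose groups lie apart. In all 12 the GHRH-KO livers lay below the Control livers without overlap. GHRH-KO replicate 5, the middle point, was the lowest in Ddost, Copg1 and Kdelr2, among others.

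The listed COPII genes went in both directions, with 7 of 13 lower and 6 higher in GHRH-KO livers and a median log2 fold change of −0.10, which was −0.067 without GHRH-KO replicate 5. Of 31 further COPII genes tested, 24 were lower and 7 higher, with a median of −0.24. Sec23b, an inner coat subunit that activates the GTPase of the Sar1 proteins, was the lowest of the 13 listed. It read 10.38, 10.22 and 10.44 in GHRH-KO livers and 10.95, 11.20 and 10.91 in Control livers, a log2 fold change of −0.68 ± 0.13 (95% interval −0.99 to −0.37) or 1.6-fold lower, with an adjusted p of 0.0609 by limma. The highest GHRH-KO liver was 0.47 below the lowest Control liver. Surf4, a receptor for soluble cargo, read 10.26, 9.96 and 10.20 in GHRH-KO livers and 10.71, 10.98 and 10.66 in Control livers (−0.64 ± 0.14, 1.56-fold lower, adjusted p = 0.0841, limma). The groups of Surf4 lay apart on this probe set, while 4 further probe sets of the gene differed by −0.72, −0.75, −0.13 and 0.30.

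Sec24a, which binds cargo in the inner coat, was the only secretory gene higher in GHRH-KO livers at an unadjusted p below 0.05. It read 11.46, 11.76 and 11.64 in GHRH-KO livers and 10.99, 11.04 and 11.55 in Control livers, so Control replicate 3 lay inside the range of the GHRH-KO livers. The log2 fold change was 0.42 ± 0.18 (adjusted p = 0.275, limma), and a dimmer probe set of the gene differed by −0.27. Without GHRH-KO replicate 5, the highest of the 6, it was 0.35, and no secretory gene was then higher at an unadjusted p below 0.05, against 7.04% of all genes. Its paralog Sec24d read 10.42, 10.52 and 10.42 in GHRH-KO livers and 10.71, 10.64 and 10.72 in Control livers, which did not overlap (−0.23 ± 0.10, adjusted p = 0.292, limma). Lman1, the lectin receptor ERGIC-53, read 11.21, 11.24 and 11.41 in GHRH-KO livers and 11.47, 11.68 and 11.45 in Control livers, a narrow gap of 0.04 between the groups (−0.25, adjusted p = 0.338, limma). Mcfd2, which works with Lman1 in the export of coagulation factors V and VIII, differed by 0.01 (95% interval −0.26 to 0.29).

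The remaining COPII genes had small or uneven differences. Sec31a, of the outer cage, differed by −0.41 with 1 Control liver far above the others, at 9.21, 9.09 and 9.11 in GHRH-KO livers and 9.33, 10.03 and 9.29 in Control livers. Without that liver, Control replicate 2, the difference was −0.17. Its partner Sec13 differed by −0.16, and Tmed10, a p24 cargo receptor, by 0.07, both with overlapping groups. Over the 8 coat genes of COPII the median log2 fold change was −0.13, and over the 5 cargo receptors it was 0.01.

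Several COPII and other subunits exist as related genes, and 6 such pairs were compared within each array. The within-array difference itself depends on the probes, so only its change between genotypes was read, by an exact two-sided permutation test, which with 3 against 3 livers cannot go below p = 0.1. Sec23a minus Sec23b was 0.20, 0.58 and 0.16 in GHRH-KO livers and −0.46, −0.72 and −0.20 in Control livers. The groups did not overlap, with a change of 0.77 (exact permutation p = 0.1, adjusted over 6 pairs 0.2), or 1.71-fold in the ratio. Sec23a alone read 10.58, 10.79 and 10.60 in GHRH-KO livers and 10.49, 10.49 and 10.71 in Control livers and differed by 0.09 (95% interval −0.20 to 0.39).

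Sec24a minus Sec24d was 1.04, 1.24 and 1.22 in GHRH-KO livers and 0.29, 0.40 and 0.83 in Control livers, a change of 0.66 without overlap (exact permutation p = 0.1, adjusted 0.2). The GTPases that start the coat are Sar1a and Sar1b. Sar1b, which in humans is needed for chylomicron secretion from the gut, read 12.69, 12.99 and 12.96 in GHRH-KO livers and 12.61, 12.32 and 12.77 in Control livers (0.31 ± 0.16, adjusted p = 0.341, limma, and 0.19 without Control replicate 2), and Sar1a read 9.51, 9.47 and 9.46 in GHRH-KO livers and 9.53, 9.60 and 9.61 in Control livers (−0.10). Sar1a minus Sar1b changed by −0.41 without overlap (exact permutation p = 0.1, adjusted 0.2). No overlap was the strongest result these 3 pairs could give with 6 livers, and none passed a threshold of 0.05.

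The other 3 pairs overlapped between the genotypes. Stt3a minus Stt3b changed by −0.04 (exact permutation p = 0.8, adjusted 0.8) and Sec11a minus Sec11c by 0.14 (exact permutation p = 0.4, adjusted 0.48). Lman1 minus Lman2 changed by −0.28 (exact permutation p = 0.3, adjusted 0.45), where Lman2, the lectin VIP36, read 9.70, 9.93 and 9.90 in GHRH-KO livers and 9.88, 9.59 and 9.97 in Control livers. Tmed2 minus Tmed10 was not compared because Tmed2 lay below the filter.

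**Figure D4:**
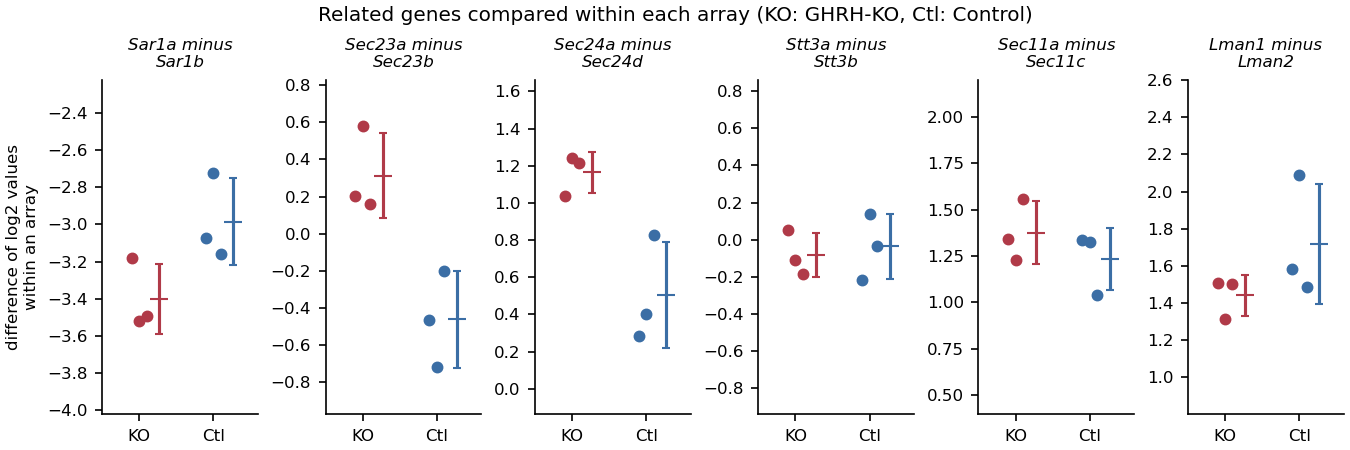
Difference of the log2 values of 2 related genes within each array (vertical axis, log2, every panel with a range of the same width), for 6 pairs. Points are single livers and the bar beside them is the mean ± SD, n = 3 per group, GHRH-KO (KO) left and Control (Ctl) right. Sar1a minus Sar1b, Sec23a minus Sec23b and Sec24a minus Sec24d did not overlap between the genotypes, and the other 3 pairs did.

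COPI had 5 of 6 genes lower in GHRH-KO livers, with a median log2 fold change of −0.21. At an unadjusted p below 0.05, 1 gene of 6 was lower (16.7%, against 10.1% of all genes). This was Copg1, the gamma subunit of the coatomer, with 8.84, 8.10 and 8.56 in GHRH-KO livers and 9.23, 9.23 and 8.87 in Control livers (−0.61 ± 0.21, adjusted p = 0.197, limma). The groups were only 0.03 apart, GHRH-KO replicate 5 was the lowest, and without it the log2 fold change was −0.41. A second, dimmer probe set of Copg1 differed by 0.22 with the GHRH-KO livers above the Control livers, so the direction of this gene rests on the choice of probe set. Kdelr2, a receptor that returns chaperones with a KDEL end to the ER, read 11.55, 11.16 and 11.62 in GHRH-KO livers and 11.79, 11.81 and 11.67 in Control livers (−0.31 ± 0.15, adjusted p = 0.326, limma). Again GHRH-KO replicate 5 was the lowest, and without it the difference was −0.17.

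The other coatomer subunits differed little. Copa, the alpha subunit, read 10.76, 10.70 and 10.79 in GHRH-KO livers and 10.95, 11.32 and 10.80 in Control livers, with Control replicate 2 standing above the rest (−0.27, adjusted p = 0.385, limma), and without that liver the difference was −0.13. Copb1, the beta subunit, read 10.28, 10.37 and 10.20 in GHRH-KO livers and 10.39, 10.39 and 10.41 in Control livers, and Copb2, the beta prime subunit, 10.35, 9.96 and 10.31 in GHRH-KO livers and 10.38, 10.30 and 10.38 in Control livers. Copb1 did not overlap between the groups, by a gap of 0.02, and Copb2 did. The differences of −0.11 and −0.14 did not pass the test, with 95% intervals of −0.36 to 0.14 and −0.47 to 0.18. Without GHRH-KO replicate 5, its lowest liver, the difference of Copb2 was −0.02. Arcn1, the delta subunit, differed by 0.04.

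Many of the genes were measured by more than 1 probe set, which gives a second reading of the same livers. The 45 genes had 99 probe sets in the tested range, of which 80 were lower in GHRH-KO livers, with a median log2 fold change of −0.28. Of the 27 genes with several probe sets, 16 were lower on all of them, 2 (Spcs1 and Stt3b) were higher on all of them, and 9 went both ways. The 9 were Arcn1, Copb2, Copg1, Lman2, Rpn1, Sec24a, Srp14, Stt3a and Surf4. The leading genes Srp19, Srp68 and Sec23b had a single probe set each and could not be read in this way.

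The promoters of 38 of the 48 genes were found in the RefSeq annotation (GRCm38.p6), in 41 windows that run from 250 bases before the start site to 50 after it, and were searched on both strands for motifs of the ER stress response. A motif of the transcription factor STAT5 and the CCAAT box were searched as well. The motif TGACGTG, known as the unfolded protein response element and bound by XBP1 and ATF6, stood in 5 of 41 promoters (12.2%), those of Copb1, Copb2, Sec23a, Sec24d and Srpr, against 2.01% of 32851 promoters in all. The ER stress response element, CCAAT and CCACG set 9 bases apart, was in 0 of 41, against 0.119% of all promoters. Of the 5 matches 4 began before the start site, that of Copb2 ending on it, and are printed in windows of 71 bases on the strand of the gene that end at the start site, with the motif in capitals, where CACGTCA is the same motif read on the other strand:
Copb1, chr7:114254680-114254750, minus strand: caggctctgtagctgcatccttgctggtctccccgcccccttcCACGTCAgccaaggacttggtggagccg
Copb2, chr9:98563661-98563731, plus strand: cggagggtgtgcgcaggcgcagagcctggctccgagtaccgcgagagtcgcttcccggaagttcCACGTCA
Sec24d, chr3:123267426-123267496, plus strand: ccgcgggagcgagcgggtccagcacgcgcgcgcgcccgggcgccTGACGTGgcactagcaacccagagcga
Srpr, chr9:35211133-35211203, plus strand: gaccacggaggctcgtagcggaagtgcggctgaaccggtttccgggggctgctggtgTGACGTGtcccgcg
The first base of the motif lay 27 bases before the start site in Copb1, 6 in Copb2, 26 in Sec24d and 13 in Srpr. The start site used for Sec24d lies inside the annotated gene, which begins at base 123264801. The genes that hold the motif did not differ alike, with log2 fold changes of −0.46 for Srpr, −0.23 for Sec24d, −0.14 for Copb2, −0.11 for Copb1 and 0.09 for Sec23a. The genes with the lowest p, Srp19, Srp68, Sec23b and Sec11c, are not among them. The STAT5 motif stood in 4 of 41 promoters (9.76%, against 8.3% of all promoters) and the CCAAT box in 19 of 41 (46.3%, against 37.4%). ERSE-II, another ER stress response element, was in 0 of 41, against 0.0365% of all promoters. TGACGTG also stood in 11 of 92 promoters (12%) of the further genes described below, and in 1 of 24 (4.17%) of ER chaperones and regulators. A match to such letters describes the window and is not evidence of binding.

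Among further genes of the same steps, also listed from their function with earlier results known and not among the 48, 4 passed the test. Of 92 such genes 83 were tested, 67 were lower and 16 higher in GHRH-KO livers, and the median log2 fold change was −0.22. The 4 called lower (4.82%, against 0.97% of all genes) were Arfgap3, Alg2, Arfgap1 and Bet1, and 0 were called higher. Arfgap3, which switches off the GTPase ARF1 on COPI coats, fell to 6.56, 6.72 and 6.59 in GHRH-KO livers, against 7.94, 8.12 and 7.94 in Control livers, a log2 fold change of −1.38 ± 0.11 (2.6-fold lower, adjusted p = 0.00278, limma). The groups were far apart, and Arfgap3 was the only one of the 4 to stay past the threshold whichever liver was left out.

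Arfgap1, with the same role on COPI coats, fell to 6.96, 6.85 and 7.07 in GHRH-KO livers, against 7.85, 7.92 and 7.60 in Control livers (−0.83 ± 0.13, adjusted p = 0.0332, limma). Alg2, a mannosyltransferase that builds the lipid-linked sugar that OST transfers, fell to 7.65, 7.39 and 7.70 in GHRH-KO livers, against 8.81, 8.86 and 8.51 in Control livers (−1.15 ± 0.15, adjusted p = 0.0168, limma). Bet1, a SNARE of ER to Golgi vesicles, fell to 8.73, 8.82 and 8.67 in GHRH-KO livers, against 9.28, 9.45 and 9.45 in Control livers (−0.65 ± 0.11, adjusted p = 0.0459, limma). None of these overlapped between the groups. With 1 liver left out, Arfgap1 had adjusted p values of 0.0628 to 0.114 and Bet1 of 0.0673 to 0.167 (limma), while Alg2 stayed below 0.05 in 3 of the 6 cases.

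Among the other genes at an unadjusted p below 0.05, 23 of 83 (27.7%, against 10.1% of all genes) were lower and 1 (1.2%, against 9.15% of all genes) was higher in GHRH-KO livers, Copz2, a zeta subunit of the coatomer, at 8.80, 8.78 and 8.40 in GHRH-KO livers and 8.17, 8.09 and 8.11 in Control livers (0.53 ± 0.14, adjusted p = 0.121, limma). By step the medians of the other genes were −0.19 for oligosaccharyl transfer (32 genes), −0.24 for COPII (31 genes), −0.22 for COPI (13 genes) and −0.07 for the translocon (5 genes).

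The chaperones and regulators of the ER were listed as a neighbouring group, also with earlier results known. Of 26 tested, 25 were lower in GHRH-KO livers, 15 at an unadjusted p below 0.05 (57.7%, against 10.1% of all genes) and 3 past the test (11.5%, against 0.97% of all genes), and the median log2 fold change was −0.42. The 3 were Creld2 (−1.81, adjusted p = 0.0143), Ero1lb, an oxidase that feeds disulfide bonds into folding proteins (−1.66, adjusted p = 0.00165), and Atf4, a transcription factor of the integrated stress response (−0.67, adjusted p = 0.0447, all by limma). With 1 liver left out in turn, Creld2 and Ero1lb stayed below 0.05 in 6 of 6 cases and Atf4 in 0 of 6, at adjusted p values of 0.0685 to 0.161 (limma). Without GHRH-KO replicate 5 the median of the 26 was −0.43, with 15 lower at an unadjusted p below 0.05, against 9.05% of all genes. Hspa5, which encodes BiP, the chaperone that Sec63 recruits, read 13.06, 12.75 and 13.15 in GHRH-KO livers and 13.40, 13.37 and 13.46 in Control livers (−0.43, adjusted p = 0.175, limma). GHRH-KO replicate 5 was the lowest of these livers.

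**Figure D5:**
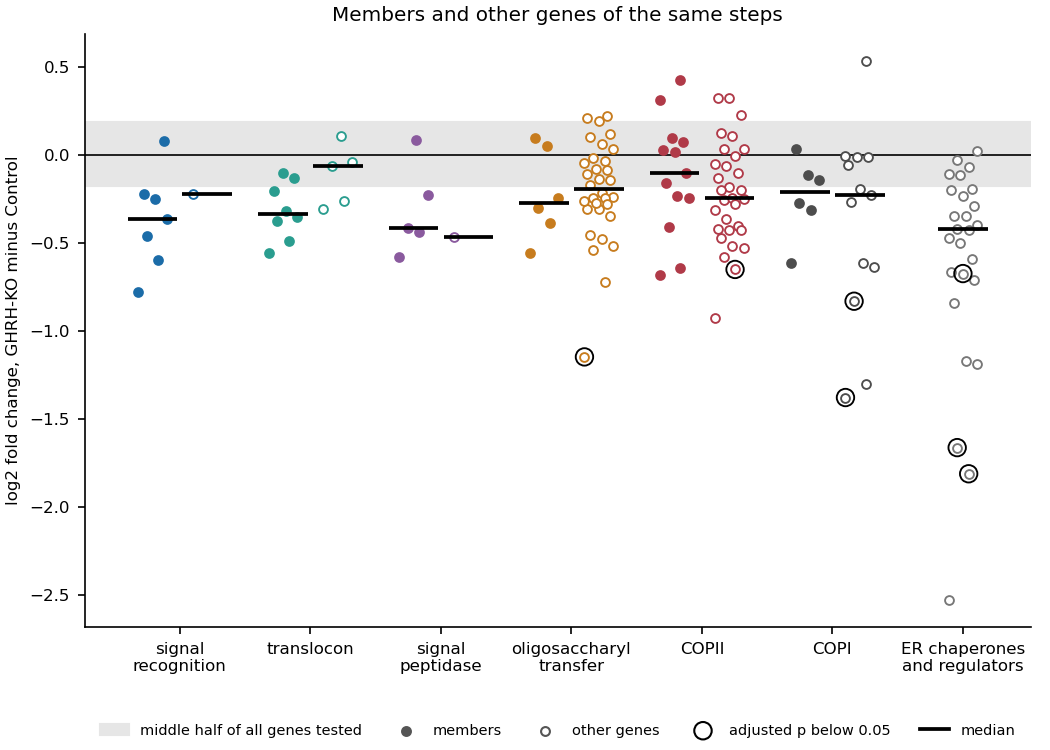
Log2 fold change, GHRH-KO minus Control (vertical axis, log2 scale), of the listed secretory genes (filled points, members), of other genes of the same steps (open points) and of ER chaperones and regulators. Black lines are medians, rings mark an adjusted p below 0.05, and the grey band spans the middle 50% of all genes tested. The medians of the 6 steps lay between −0.41 and −0.10, and ringed genes occurred among the other genes of the steps (4) and the ER group (3), with 0 among the listed genes.

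Markers of other cell types that liver RNA could hold were read as well. The summed signal of 8 plasma cell markers was 11.5 to 11.7 on the log2 scale in GHRH-KO livers and 11.8 to 12.1 in Control livers. Of the 6 tested, 0 were past the test and 2, Ighm and Derl3, were lower at an unadjusted p below 0.05. Ighm overlapped between the groups. Jchain, Mzb1, Sdc1 and Irf4 differed by 0.03, −0.10, −0.04 and 0.08. Prdm1 and Tnfrsf17 lay below the filter, and Prdm1 was higher without overlap (0.48). The summed signal of 8 pancreatic acinar markers was 9.31 to 9.63 in GHRH-KO livers and 10.7 to 11.4 in Control livers. Of these markers Cela1 alone was called lower (−2.07, adjusted p = 0.0091, limma), while Cela2a, Cpa1, Cpb1 and Cel lay below the filter. Cela3b was higher without overlap at an unadjusted p below 0.05 (0.32, adjusted p = 0.212, limma). Prss2 differed by 0.01, and Ctrb1 by −1.15 with 1 Control liver far above the others (adjusted p = 0.431, limma). The summed signal of 3 erythroid markers was 9.42 to 9.91 in GHRH-KO livers and 10.7 to 11.2 in Control livers, through Alas2 (−1.36, adjusted p = 0.0219, limma), with Hba-a1 and Slc4a1 below the filter. That of 4 neutrophil markers was higher, at 6.51 to 7.26 in GHRH-KO livers and 6.33 to 6.49 in Control livers, with 1 of the 2 tested higher at an unadjusted p below 0.05, 0 past the test, and Elane and Mpo below the filter. For 10 Kupffer cell markers the sums overlapped, at 11.5 to 13.0 in GHRH-KO livers and 11.5 to 12.8 in Control livers. Of these, Cd68 alone had an unadjusted p below 0.05 and was higher without overlap (1.19, adjusted p = 0.155, limma), while Marco, Timd4 and C1qa were lower. The sums of lymphocyte, endothelial, stellate and cholangiocyte markers also overlapped. At an unadjusted p below 0.05, 1 of 7 stellate markers was higher and 1 of 3 cholangiocyte markers tested was lower. The part of these cells in the secretory genes was not tested.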

How the data were processed

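Liver RNA of 6 mice was hybridized to Affymetrix arrays, 1 per animal. The authors corrected the background, quantile-normalized and summarised the arrays by RMA and deposited log2 values of all 45101 probe sets. Age is as the study's methods give it, and strain and fast are per the labels. The software version is not given in the sources used here, and their detection filter (MAS 5.0) could not be repeated on RMA values.

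After 64 control probe sets had been dropped, the brightest 25145 by mean entered 1 fit of GHRH-KO minus Control in limma 3.58.1 (lmFit, eBayes; R 4.3.3), with Benjamini-Hochberg adjustment over all of them. In the annotation 34958 probe sets had 1 gene, 932 several, and 9211 were not listed. Each gene was read by its brightest probe set. Values on every array are given for up to 5 genes per step with the lowest p, for both genes of each described pair, and for other pathway genes past an adjusted p of 0.05. The genes, lists and rules were chosen with earlier results of these data known. RMA compresses low signals, and 3 arrays per group limit the precision. The test was checked on simulated data. Alternatives were the dim-probe filter, median centring, repeated quantile normalization, an intensity trend with a robust prior, the choice of probe set, and leaving out arrays. Figures were drawn with matplotlib 3.10.9.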

Additional observations from a re-analysis of the deposited data

How the results depend on the processing

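Of the 34 secretory genes lower in GHRH-KO livers, 33 kept their direction under all 14 alternatives (Copb2 did not), and of the 11 that were higher 3 did. The number of genes past the adjusted threshold was 0 in either direction and became 1 lower with no filter on dim probe sets, 1 with a stricter filter, 2 with an intensity trend and robust prior, and 1 with the probe set of lowest p in place of the brightest (Srp19 in the first 3, with Sec23b in the third, and Sec61a1 in the last). In these settings 0.698% to 1.46% of all genes were lower past the adjusted threshold. The count at an unadjusted p below 0.05 was 17 lower and 1 higher, and became 26 lower with the probe set of lowest p, which is chosen for its p. With that choice 13.6% of all genes were lower at an unadjusted p below 0.05. The 1 higher gene became 0 with the stricter filter, with repeated quantile normalization and without both Control replicate 2 and GHRH-KO replicate 5, and 2 with the intensity trend. In these settings 6.18% to 10.2% of all genes were higher at an unadjusted p below 0.05. Genes without overlap that were higher numbered 2 with the probe set of lowest p and 1 without those 2 arrays, against 15.7% and 20.7% of all genes.

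The median over the 45 genes, −0.25, was −0.20 after median centring (which moved the median of all genes to 0.05), −0.40 with the probe set of lowest p, −0.27 without _s_at and _x_at probe sets and −0.22 without Control replicate 2 and GHRH-KO replicate 5. Median centring gave −0.32 for signal recognition, −0.29 for the translocon and −0.059 for COPII (−0.10). The probe set of lowest p gave −0.46 for signal recognition, −0.52 for the translocon and −0.50 for COPI. Without Control replicate 2 and GHRH-KO replicate 5 the median was −0.35 for signal peptidase, −0.16 for oligosaccharyl transfer and −0.12 for COPI (−0.21). The median of the other pathway genes, −0.22, was −0.21 with no filter, −0.23 with a stricter one, −0.18 after median centring, −0.20 after repeated quantile normalization, −0.26 with the probe set of lowest p, −0.24 without _s_at and _x_at probe sets and −0.16 without the 2 arrays, where 1 of the 4 calls was left. Higher other genes at an unadjusted p below 0.05 numbered 2 with the probe set of lowest p, against 11.9% of all genes. The change of Sec23a minus Sec23b was 0.51 and that of Lman1 minus Lman2 −0.028 without the 2 arrays, and that of Stt3a minus Stt3b was −0.47 with the probe set of lowest p. The cause of these differences was not tested.

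With 1 array left out in turn, the lower genes at an unadjusted p below 0.05 numbered 12 to 17, the higher ones 0 to 2, and the higher ones without overlap 0 to 3. The shares of all genes in the same fits were 6.91% to 9.83%, 6.82% to 9.28% and 15.5% to 19.6%. The median of the 45 genes ran from −0.28 to −0.20, that of signal recognition from −0.40 to −0.33, of the translocon from −0.35 to −0.29, of signal peptidase from −0.46 to −0.35, of oligosaccharyl transfer from −0.34 to −0.22, of COPII from −0.12 to −0.067 (without GHRH-KO replicate 5), of COPI from −0.25 to −0.15 and of the other pathway genes from −0.25 to −0.15. The change of Sec23a minus Sec23b ran from 0.64 to 0.90 and that of Lman1 minus Lman2 from −0.39 to −0.091. The 4 calls among the other pathway genes became 1 when Control replicate 1, when Control replicate 2 or when GHRH-KO replicate 6 was left out, and 2 when Control replicate 3, when GHRH-KO replicate 4 or when GHRH-KO replicate 5 was. In these fits 0.345% to 0.755% of all genes were lower past the adjusted threshold. No paired analysis was possible because the 2 groups share no replicate number. Dim probe sets lie near background, where RMA values understate a difference.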
